A study of Mus musculus with 12 samples.

Results

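The 6 libraries of 3 Dicer-complemented mouse embryonic stem cell lines, SOM, 41584 and 41589, were pooled and set against the 2 libraries of wild-type (WT) cells, to find the genes that all 6 share apart from WT. These 8 libraries were taken by their sample descriptions from the 12 of the series. SOM, 41584 and 41589 are called the rescued lines here. KO, a Dicer knockout, and 41585, labelled as processing neither miRNAs nor siRNAs, make up the other 4 libraries, are called the deficient libraries and serve only for orientation. Every group had 2 libraries of poly(A) RNA from E14 cells of the 129/Ola background. Line 41584 is labelled as resembling WT and 41589 as lacking siRNA processing, while the genotype field of SOM repeats its name. The sources used here do not give what the line names stand for, which Dicer sequence was put back or whether a line is 1 clone. All cells, WT included, were kept in 15% serum with 100 U/mL LIF on 0.2% gelatin and in 1 µg/mL puromycin. Nothing in the labels tells whether libraries of the same group are separate cultures, so p-values measure only the spread between libraries, which may be technical.

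Dicer is the RNase that cuts hairpin precursors into miRNAs and long double-stranded RNA into siRNAs. A mature miRNA guides an Argonaute protein to messenger RNAs, mostly through pairing of its seed with the 3' untranslated region (UTR), and lowers their level. In mouse embryonic stem cells miRNAs of the miR-290 cluster are abundant. Its members miR-294 and miR-295, and miR-302b of the miR-302 cluster, share the seed AAGUGCU.

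The miRNAs whose sites were searched are printed with the seed in capitals, from RefSeq (GRCm38.p6). The embryonic stem cell miRNAs come first, since the levels of their targets bear on whether a line processes miRNAs, followed by a miR-17 family member with a shifted seed and by let-7a.
mmu-miR-294-3p: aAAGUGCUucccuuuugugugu
mmu-miR-295-3p: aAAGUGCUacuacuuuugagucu
mmu-miR-302b-3p: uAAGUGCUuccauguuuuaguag
mmu-miR-20a-5p: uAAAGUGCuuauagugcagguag
mmu-let-7a-5p: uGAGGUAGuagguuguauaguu
Of 19 tested genes reported as targets of the AAGUGC seed, none was called in rescued lines against WT (edgeR adjusted p under 0.05), where 0.0889% of all genes were, so that this count says nothing about the targets. The median log2 fold was −0.02, beside −0.01 over all 14629 tested genes. By line the median was −0.11 in SOM, −0.01 in 41584 and −0.05 in 41589. In KO and 41585, compared with the same WT libraries, it was 0.75 and 0.70. The medians near 0 in the rescued lines cover members that differed both ways, with 2 of the 19 above and 1 below WT without overlap between the libraries, beside 7.27% and 9.68% of all genes. Lats2, a kinase of the Hippo pathway, had 1.24 and 1.53 CPM in WT (CPM are the reads of a gene relative to the TMM-scaled library total), 2.81 to 11.3 CPM in rescued and 22.3 to 35.5 CPM in deficient libraries (rescued against WT 2.11 ± 0.55, edgeR adjusted p = 0.145). Cdkn1a, a cell cycle inhibitor, had 106 and 66.8 CPM in WT and 22.3 to 68.9 CPM in rescued libraries, so its groups overlapped (−1.18 ± 0.29, edgeR adjusted p = 0.142). The labels do not describe the miRNA processing of SOM. For 22 reported let-7 targets the medians were 0.12 in SOM, 0.05 in 41584 and 0.09 in 41589.

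The libraries held 5348401 to 10428509 counted reads, and no pair of libraries held identical counts. The rescued libraries did not lie at 1 distance from WT. Replicate 1 of 41584 and replicate 1 of 41589 had 888 and 883 genes at least 2-fold from the WT mean. SOM replicates 1 and 2 had 3532 and 2872 such genes, 41584 replicate 2 had 3152 and 41589 replicate 2 had 3823. Between the 2 libraries of a line, 3635 genes differed by at least 2-fold in 41584 and 2945 in 41589, against 1181 in WT and 1658 in SOM. Dusp27, a catalytically inactive phosphatase family member, shows the split: 87.1 CPM in replicate 2 of both lines, 20.6 in 41584 replicate 1 and 33 in 41589 replicate 1. Markers of embryonic stem cells were present in every library, with a summed level over 7 genes of 6250 to 6860 CPM in WT and 5650 to 6820 CPM in rescued libraries. Fibroblast markers summed to 9.74 to 13.8 CPM in WT and 6.37 to 27.5 CPM in rescued libraries over 6 genes, mostly Thy1, with Col3a1 and Dcn at 0 in 7 of the 8 libraries. Primitive endoderm markers (4 genes) summed to 10.1 to 19.5 and 5.75 to 51.1 CPM, and trophectoderm markers (3 genes) to under 1 CPM in each library. In bulk RNA, fewer cells of a type and less RNA per cell cannot be told apart.

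Of 14629 genes tested, 13 were called in rescued lines against WT (0.0889%), 6 higher (0.041%) and 7 lower (0.0479%). A call is a Benjamini-Hochberg adjusted p under 0.05 in edgeR's quasi-likelihood test, with each line given equal weight, n = 6 rescued and n = 2 WT libraries. In 12 of the 13, all 6 rescued libraries lay on the same side of both WT libraries. These shared genes were 6 higher and 6 lower. All 6 higher ones lie on chromosome 1: Rab29, Lamc1, Slc41a1, Nav1, Timm17a and Ipo9. These 6 were also called higher in KO and in 41585 against the same WT libraries (edgeR adjusted p 0.00114 to 0.00952). Of all genes, 7.29% were called higher in KO and 16.3% in 41585. The 6 lower ones are Efhc2, Fam110c, Platr14, Mybl1, Serpinb6c and Rsrp1, on 6 different chromosomes. The gene called without being shared was Dicer1. The adjusted p-values by edgeR lay between 0.0197 and 0.0491, close to the threshold. Just outside it lay Tmem30b (0.0544), Scara5 (0.0593) and Glul (0.0702), likewise without overlap between the groups.

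The calls rested on single libraries. Without WT replicate 1, SOM replicate 1 or 41584 replicate 2, edgeR called 0 of the genes, and without WT replicate 2 or 41589 replicate 2 it called only Efhc2. Without SOM replicate 2 it called Dicer1 and Mybl1. Without 41584 replicate 1 it called 1013 genes and without 41589 replicate 1 it called 1105, and all 13 genes were among the calls both times. DESeq2 called 452 genes, 267 higher and 185 lower, and gave Fam110c no adjusted p. The shared genes are therefore described by their values in every library.

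**Figure D1:**
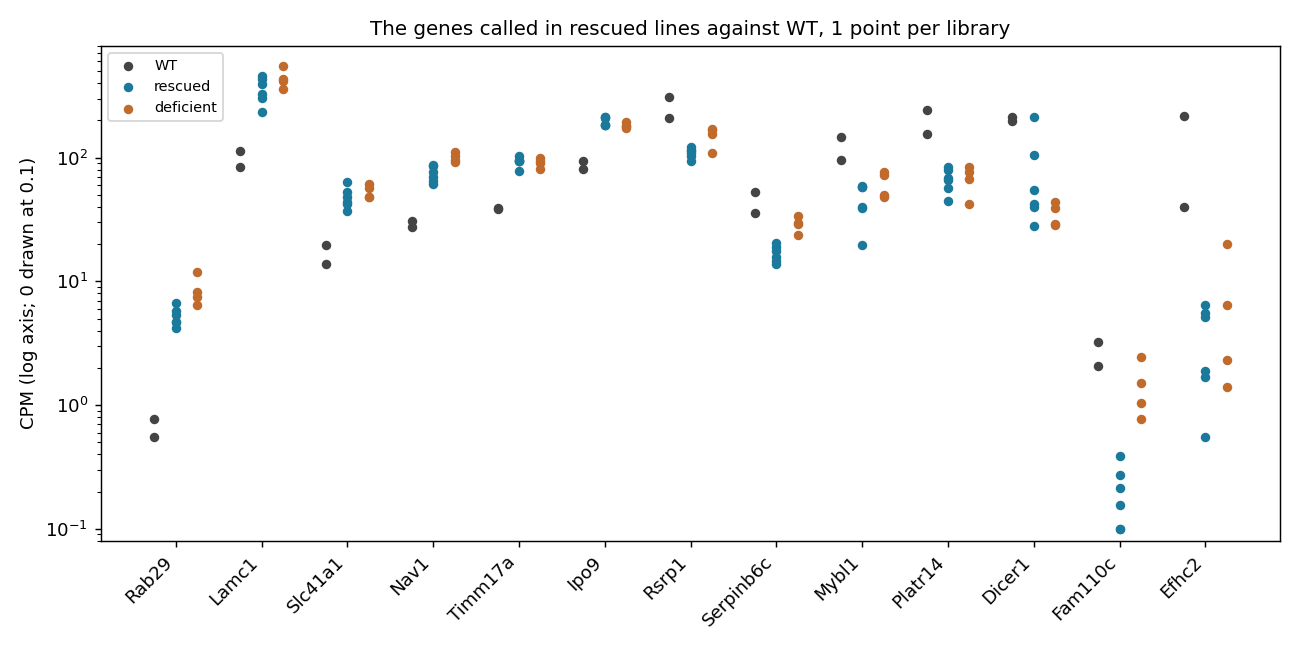
Level of the 13 called genes in each library, in CPM on a log axis, with 0 drawn at 0.1; grey points are the 2 WT, blue the 6 rescued and orange the 4 deficient libraries. The blue points lie wholly above or wholly below the grey ones in 12 genes, and in Dicer1 they overlap, since SOM holds 105 and 215 CPM.

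Timm17a encodes a subunit of the translocase that imports proteins into mitochondria (chromosome 1, 135295213 to 135313778, GRCm38). It was at 38.7 and 39.1 CPM in WT, 103 and 93.7 in SOM, 78.5 and 96.4 in 41584, and 93.3 and 93.3 in 41589. Every rescued library held at least 2 times the level of either WT library. The mean rose from 38.9 ± 0.274 CPM (SD, n = 2) to 93.1 ± 8.04 (SD, n = 6), a log2 fold of 1.26 ± 0.18 (edgeR adjusted p = 0.0451). Its neighbour Ipo9, an importin that carries histones and other cargo into the nucleus, was at 81.3 and 94.2 CPM in WT, 185 and 213 in SOM, 183 and 209 in 41584, and 183 and 213 in 41589. The lines were alike here, and the log2 fold was 1.17 ± 0.18 (edgeR adjusted p = 0.0451). Nav1, a protein of growing microtubule ends that lies next to Ipo9, had 27.7 and 30.8 CPM in WT and between 61.2 and 86.8 CPM in the rescued libraries, a log2 fold of 1.34 ± 0.21 (edgeR adjusted p = 0.0451).

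Rab29, a small GTPase of the Golgi and lysosomal traffic, showed the highest ratio of the 6 (chromosome 1, 131867224 to 131872887). It had 0.773 and 0.547 CPM in WT, from 5 reads in each library. In SOM it had 6.68 and 4.7 CPM, in 41584 4.73 and 4.2, and in 41589 5.77 and 5.3. The gene lay just above detection in WT and at a low but even level in all 3 lines. Its log2 fold was 2.97 ± 0.47 (edgeR adjusted p = 0.0451). The deficient libraries had 6.43 to 11.8 CPM, also above both WT libraries. Slc41a1, a magnesium transporter gene directly before Rab29 on the chromosome, had 13.8 and 19.6 CPM in WT and 37 to 63.6 CPM in the rescued libraries (log2 fold 1.52 ± 0.25, edgeR adjusted p = 0.0491). Lamc1, the laminin gamma 1 chain of basement membranes (153218922 to 153332786), had 83.4 and 114 CPM in WT, 326 and 432 in SOM, 304 and 395 in 41584, and 234 and 454 in 41589. The lowest rescued library thus held more than 2 times the higher WT library, and the log2 fold was 1.85 ± 0.29 (edgeR adjusted p = 0.0451).

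The 6 higher genes have neighbours that lay higher as well. Along each chromosome the single stretch of genes with a mean of at least 5 CPM whose mean fold stood most apart from the rest of the chromosome was located. On chromosome 1 it ran from Mapkapk2 to Ralgps2, chr1:131053700-156939626, over 25.9 Mb and 104 such genes. Its mean log2 fold was 0.85, against −0.10 for the rest of the chromosome. Its score, 8.82, stood above that of the next chromosome, 4.85 on chromosome 10. The stretch was found in these data, so its values are a description, with no test.

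Of the 149 tested genes in the stretch, 133 had a fold above 0 and 77 had all 6 rescued libraries above both WT libraries (51.7%). Over all tested genes that share was 7.27% (1063 genes), and over the other 714 genes of chromosome 1 it was 5.04%. In the opposite direction 1 gene of the stretch had no overlap, against 9.68% (1416) of all genes. The median log2 fold was 0.76, or 1.69-fold, with quartiles of 0.40 and 1.05, and it was −0.12 in the rest of the chromosome. All 6 genes called higher lie in the stretch, 6 of 149. Genes next to the borders did not all follow them. Before Mapkapk2 (0.63) lie Pfkfb2 (−1.04) and Yod1 (−1.28), but inside that border Eif2d (0.35), Srgap2 (0.34) and Fam72a (0.03) had small folds. After Ralgps2 (0.50) lies Rasal2 (−0.10), followed by 2810025M15Rik (0.52) and Cryzl2 (−0.22). The 20 expressed genes before the stretch had a median of −0.23 and the 20 after it −0.17.

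**Figure D2:**
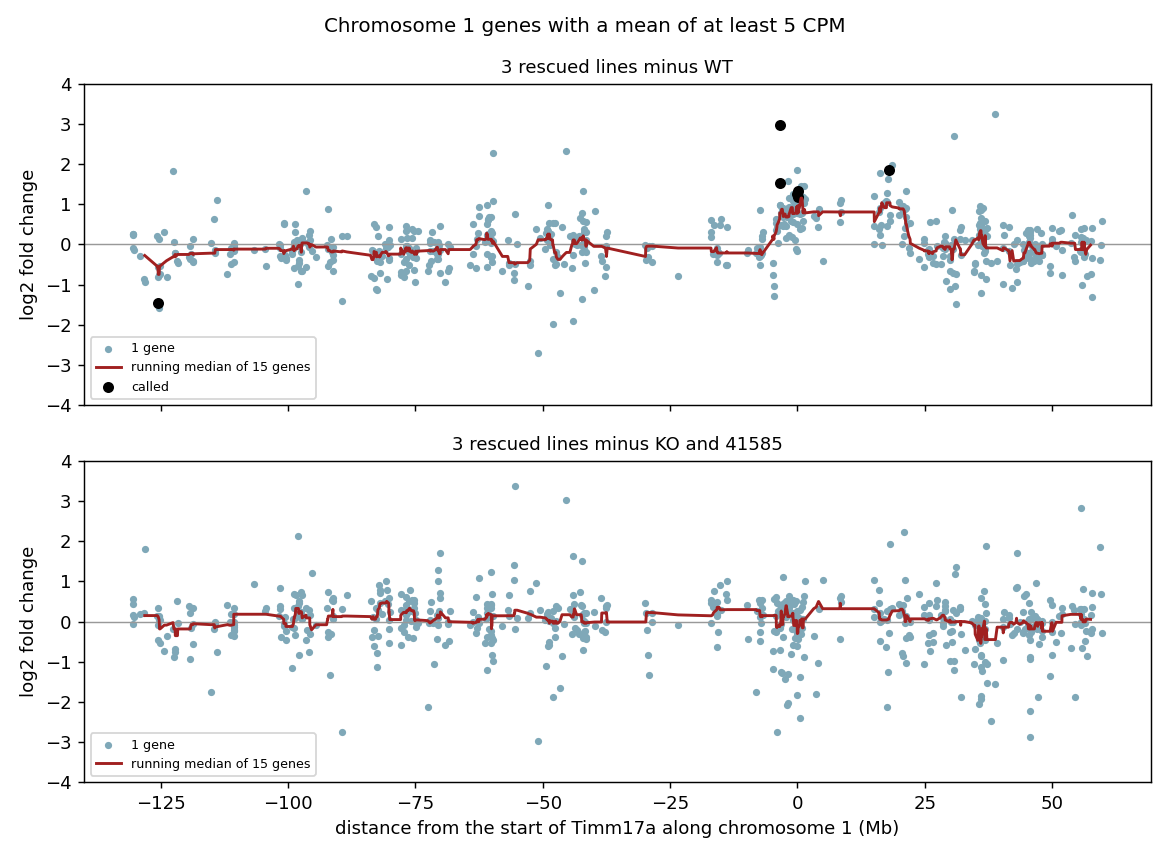
Log2 fold change of chromosome 1 genes with a mean of at least 5 CPM against their distance from the start of Timm17a in Mb, for rescued lines against WT (top) and rescued lines against the deficient groups (bottom); the line is a running median of 15 genes and black points are called genes. The running median is raised over 1 stretch around and after Timm17a in the top panel and stays near 0 there in the bottom panel. The median of the stretch over genes with at least 5 CPM is 0.78 in the top and 0.11 in the bottom panel.

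Each line held the difference. The median log2 fold of the stretch against WT, over its 149 tested genes, was 0.65 in SOM, 0.84 in 41584 and 0.83 in 41589. By library it was taken relative to the WT mean over the 104 genes with a mean of at least 5 CPM. It was then 0.599 and 0.83 in SOM, 0.871 and 0.784 in 41584, and 0.868 and 0.788 in 41589, with 0.0141 and −0.0141 in WT. The 2 libraries that otherwise lay nearest to WT, replicate 1 of 41584 and of 41589, were at 0.871 and 0.868, the top of that range. Genes of the stretch took 0.648 and 0.66% of the reads in WT and 1 to 1.26% in rescued libraries. The difference was also present without miRNA processing: over all 149 genes the median was 0.78 in KO and 0.84 in 41585, compared with the same WT libraries. Over the 104 genes these medians were 0.70 and 0.74, and single deficient libraries lay between 0.712 and 0.777. Between rescued and deficient groups, which do not share WT, the median was 0.04 over the 149 genes (quartiles −0.72 and 0.44) and 0.11 over the 104. WT was thus the group that stood apart over this stretch. DNA copy number was not measured, and a change of dosage in WT or in the other lines was not tested.

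**Figure D3:**
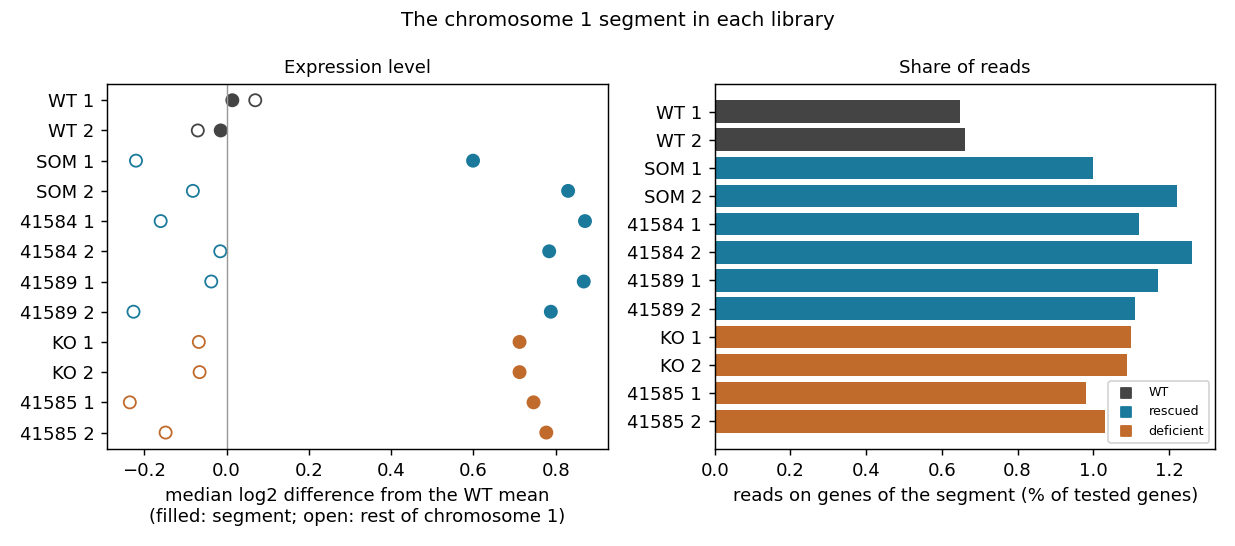
Left, the median log2 difference from the WT mean of genes with a mean of at least 5 CPM in the chromosome 1 stretch (filled) and in the rest of chromosome 1 (open) for each library. Right, the share of reads on all tested genes of the stretch, in % of reads on tested genes. All 10 libraries other than WT lie between 0.599 and 0.871 on the left, and the 2 WT libraries have the lowest shares on the right, 0.648 and 0.66%.

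Other genes of the stretch were not called, and the following are given for their levels. Nr5a2, a nuclear receptor of the pluripotency network, had 51.8 and 53.7 CPM in WT and 86.3 to 148 CPM in the rescued libraries (log2 fold 1.12 ± 0.27, edgeR adjusted p = 0.142). In the deficient libraries it had 41 to 77.2 CPM, so this gene was higher in rescued than in deficient groups as well (1.01 ± 0.21, edgeR adjusted p = 0.00324). Glul, glutamine synthetase, had 43.5 and 65.6 CPM in WT and 128 to 278 CPM in rescued libraries (1.98 ± 0.35, edgeR adjusted p = 0.0702). The RNA helicase gene Dhx9, which acts on double-stranded RNA, had 547 and 603 CPM in WT and 685 to 1420 CPM in rescued libraries (0.74 ± 0.25, edgeR adjusted p = 0.178). Tpr, a nuclear pore protein, had 302 and 330 CPM in WT and 581 to 1000 CPM in rescued libraries (1.19 ± 0.23, edgeR adjusted p = 0.0818). None of these 4 had a rescued library within the WT range. Mdm4, a p53 regulator in the same stretch, had 770 and 668 CPM in WT and 480 to 1060 CPM in rescued libraries, so its groups overlapped (0.16 ± 0.26, edgeR adjusted p = 0.743).

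The start regions of 3 shared genes are printed because the higher genes lie along 1 chromosome and Efhc2 had the lowest adjusted p. They run from 250 bases before to 50 after the start in the nearest RefSeq entry (GRCm38.p6). The Efhc2 region lies wholly upstream of the gene as counted, 17132049 to 17319368, so it may not describe the start of that gene. RefSeq entries matched 11 of the 13 called genes. Capitals mark CCAAT, searched on both strands, so that a match on the other strand appears as its reverse complement. The motif TATAAA was searched likewise and is in none of these 3.
Timm17a promoter, chr1:135313688-135313987, - strand: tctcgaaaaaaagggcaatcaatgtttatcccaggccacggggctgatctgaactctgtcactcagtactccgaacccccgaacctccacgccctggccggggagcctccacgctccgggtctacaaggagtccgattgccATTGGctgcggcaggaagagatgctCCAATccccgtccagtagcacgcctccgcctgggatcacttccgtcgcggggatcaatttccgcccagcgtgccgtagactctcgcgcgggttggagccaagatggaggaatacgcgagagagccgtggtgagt
Rab29 promoter, chr1:131867027-131867326, + strand: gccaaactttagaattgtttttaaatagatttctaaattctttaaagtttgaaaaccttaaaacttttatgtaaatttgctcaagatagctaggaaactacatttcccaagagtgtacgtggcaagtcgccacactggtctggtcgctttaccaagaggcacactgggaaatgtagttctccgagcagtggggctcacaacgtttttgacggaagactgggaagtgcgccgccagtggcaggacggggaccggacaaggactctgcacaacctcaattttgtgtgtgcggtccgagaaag
Efhc2 promoter, chrX:17319892-17320191, - strand: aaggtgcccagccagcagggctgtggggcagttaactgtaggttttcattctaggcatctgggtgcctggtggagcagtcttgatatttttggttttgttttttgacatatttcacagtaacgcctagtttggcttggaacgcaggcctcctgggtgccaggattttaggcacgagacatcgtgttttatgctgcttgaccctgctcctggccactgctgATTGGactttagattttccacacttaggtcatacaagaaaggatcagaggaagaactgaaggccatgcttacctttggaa
CpG dinucleotides numbered 25 at Timm17a, 12 at Rab29 and 4 at Efhc2, beside a median of 21 over the start regions of 10636 tested genes. CCAAT was in 39.1% of those regions and TATAAA in 6.95%. Among 113 genes of the chromosome 1 stretch with an entry the shares were 37.2% and 4.42% and the median CpG number was 18, so in these letters the stretch resembled all genes.

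Efhc2, an X-linked gene for an EF-hand protein of ciliary microtubules (17132049 to 17319368), was called lower. It was at 216 and 40 CPM in WT, 1.89 and 1.69 in SOM, 5.5 and 5.13 in 41584, and 6.42 and 0.548 in 41589. The WT libraries thus differed widely from each other, by more than the groups did in most called genes, yet both lay above every rescued library. The log2 fold was −5.31 ± 0.63 (edgeR adjusted p = 0.0197), and without WT replicate 1 it was −3.64 and not called (edgeR adjusted p = 0.945). It was −6.07 without WT replicate 2 and −6.18 without 41589 replicate 1, both called. The deficient libraries had 1.39 to 20.1 CPM, also below both WT libraries. Other genes with a wide gap were rare: 7 genes had all rescued libraries at least 2-fold above both WT libraries (0.0479%) and 21 at least 2-fold below (0.144%).

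Mybl1, a transcription factor gene of male meiosis, lies near the other end of chromosome 1 (9667415 to 9700209), outside the raised stretch. It had 146 and 96.6 CPM in WT, 19.5 and 39.6 in SOM, 57.7 and 59.4 in 41584, and 58.2 and 39.4 in 41589, a log2 fold of −1.47 ± 0.24 (edgeR adjusted p = 0.0491). SOM had the lowest mean, 29.6 CPM, and 41584 the highest of the lines, 58.5 CPM. Platr14, a long noncoding RNA of pluripotent cells, had 242 and 155 CPM in WT and 44.3 to 84.2 CPM in rescued libraries (−1.58 ± 0.25, edgeR adjusted p = 0.0451). Its difference between rescued and deficient groups was 0.00 ± 0.21. Rsrp1, which encodes a protein rich in arginine and serine, had 309 and 209 CPM in WT and 93.6 to 121 CPM in rescued libraries (−1.25 ± 0.19, edgeR adjusted p = 0.0451). Serpinb6c, a protease inhibitor gene, had 52.6 and 35.9 CPM in WT and 13.7 to 20.5 CPM in rescued libraries (−1.40 ± 0.22, edgeR adjusted p = 0.0451). Reads of Serpinb6c may be split with close copies of the same family. Fam110c, a centrosomal protein gene, rested on few reads: 21 and 19 in WT, 0 and 0 in SOM, 3 and 1 in 41584, and 2 and 3 in 41589 (edgeR adjusted p = 0.0491), while deficient libraries had 5 to 20.

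Against the deficient groups, the lower shared genes are ordered here by the edgeR threshold, which did not part them by fold. Mybl1 and Rsrp1 both stood at −0.46, on different sides of it. Efhc2 (−0.64, edgeR adjusted p = 0.492), Mybl1 (−0.46, edgeR adjusted p = 0.118) and Platr14 did not pass the test between rescued and deficient groups. For Serpinb6c the deficient libraries, at 23.9 to 33.6 CPM, lay between rescued and WT libraries, and rescued lines were lower than the deficient groups (−0.80 ± 0.19, edgeR adjusted p = 0.00793). The same held for Rsrp1, with 110 to 172 CPM (−0.46 ± 0.16, edgeR adjusted p = 0.0467), where the lowest of them overlapped the rescued libraries. Fam110c was also lower in rescued lines than in deficient groups (−3.76 ± 0.69, edgeR adjusted p = 0.00214). Among the 6 higher genes, Nav1 was lower in rescued than in deficient groups (−0.45 ± 0.15, edgeR adjusted p = 0.0468). Of all genes, 25.5% were called between rescued and deficient groups.

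Dicer1 was the called gene in which the lines parted. It was at 197 and 214 CPM in WT, 105 and 215 in SOM, 42.3 and 55 in 41584, and 40.2 and 27.8 in 41589. SOM overlapped WT, and 41584 and 41589 lay with KO and 41585, at 28.5 to 44 CPM. The log2 fold of the pooled lines was −1.68 ± 0.26 (edgeR adjusted p = 0.0451), and −2.31 with SOM left out (edgeR adjusted p = 0.0102). Dicer1 ranked first of all genes in edgeR's test of differences among the lines, without passing it (edgeR adjusted p = 0.529). Which part of Dicer1 the counts cover in each line is not given, so the values do not measure the protein put back. Among the other 21 genes of the small RNA machinery none was called, beside 0.0889% of all genes. Ddx17, an RNA helicase of the Microprocessor, had 865 and 890 CPM in WT and 434 to 732 CPM in rescued libraries (−0.67 ± 0.20, edgeR adjusted p = 0.159). Prkra, a double-stranded RNA-binding partner of Dicer, had 25.5 and 23.4 CPM in WT and 10.3 to 18.7 CPM in rescued libraries (−0.86 ± 0.26, edgeR adjusted p = 0.161). Ago4 had 5.1 and 3.17 CPM in WT and 0.376 to 2.99 CPM in rescued libraries (−1.43 ± 0.53, edgeR adjusted p = 0.197). Of the 22 genes in all, 4 lay lower and 1, Ago1, higher without overlap, beside 9.68% and 7.27% of all genes. Of the 4, Ddx17 (505 to 669 CPM), Prkra (10.8 to 17.1) and Ago4 (0.616 to 1.17) also lay below WT in every deficient library. Tnrc6b lay above WT there, at 209 to 305 CPM against 181 and 195 CPM.

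Alone, no line had a gene called against WT by edgeR. At an unadjusted p under 0.05, SOM had 1457 genes higher and 1718 lower, 41584 had 402 and 304, and 41589 had 1095 and 624. DESeq2 called 660, 27 and 74 genes. The lines share the WT libraries, so their folds for the shared genes are only set side by side. Rab29 was at 3.10, 2.75 and 3.06 in SOM, 41584 and 41589, Lamc1 at 1.94, 1.82 and 1.80, Timm17a at 1.34, 1.17 and 1.26, and Rsrp1 at −1.40, −1.17 and −1.18. The test among the 3 lines, which does not use WT, called 0 of 14629 genes by edgeR, with 121 at an unadjusted p under 0.05 and 1 called by DESeq2. Of the 12 shared genes, the 4 with the lowest unadjusted p in edgeR's test among lines were Mybl1 (0.0291), Fam110c (0.122), Efhc2 (0.351) and Serpinb6c (0.386), each with an adjusted p of 1.

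In 33 gene lists the only called members were Dicer1, in the small RNA machinery, and Lamc1, in the matrix and endoderm lists. The formative and primed epiblast list had the highest median in rescued lines, 1.01 over 14 tested genes, beside −0.01 over all genes. The deficient groups were raised on this list as well, at 0.80 in KO and 1.35 in 41585 with the same WT. In rescued lines the list had 3 members higher without overlap and none lower, beside 7.27% and 9.68% of all genes. Dnmt3a, a de novo DNA methyltransferase, had 45.9 and 73.2 CPM in WT and 113 to 163 CPM in rescued libraries (1.21 ± 0.22, edgeR adjusted p = 0.0715). Zic2, a transcription factor of the epiblast, had 3.4 and 6.13 CPM in WT and 4.73 to 33.6 CPM in rescued libraries (1.85 ± 0.59, edgeR adjusted p = 0.17). Sox4 (1.17 ± 0.44, edgeR adjusted p = 0.199) and Etv4 (1.02 ± 0.40, edgeR adjusted p = 0.206) were the other members without overlap. The list's level moved with the split of the libraries: 0.0515 in 41584 replicate 1 and 0.671 in 41589 replicate 1, against 1.02 to 1.45 in the other 4, and −0.305 and 0.305 in WT.

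The FGF-ERK list, genes of a growth factor pathway that moves stem cells towards differentiation and of its feedback, had a median of 0.50 over 18 tested genes, with 5 higher and 2 lower without overlap, beside 7.27% and 9.68% of all genes. Egr1, an immediate early target, had 26.9 and 28.1 CPM in WT and 38.9 to 113 CPM in rescued libraries (1.62 ± 0.30, edgeR adjusted p = 0.079). Erf, a repressor inactivated by ERK, had 9.12 and 16.7 CPM in WT and 26.3 to 68.6 CPM in rescued libraries (1.68 ± 0.41, edgeR adjusted p = 0.143). The ligand Fgf4 had 309 and 266 CPM in WT, 90.2 to 211 CPM in rescued libraries (−0.79 ± 0.20, edgeR adjusted p = 0.145) and 429 to 466 CPM in deficient ones. Egr1, Erf and Fgf4 had no overlap between rescued and WT libraries, and none was called.

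Naive and core pluripotency genes differed both ways around a median of 0.08 over 22 genes. Without overlap, 1 was higher and 2 were lower, beside 7.27% and 9.68% of all genes, and at an unadjusted p under 0.05 5 were higher and 3 lower by edgeR, with none called. Dppa3, a maternal factor expressed in a part of stem cells, had 7.11 and 8.42 CPM in WT and 1.2 to 3.47 CPM in rescued libraries (−2.01 ± 0.46, edgeR adjusted p = 0.128). Gbx2, a LIF target, overlapped by 1 library: WT had 3.4 and 10.3 CPM, 41584 replicate 1 had 10.1, and the other rescued libraries had 25.1 to 46 CPM (2.32 ± 0.57, edgeR adjusted p = 0.143). Pou5f1 ranged from 140 to 322 CPM in WT and from 274 to 791 CPM in rescued libraries (1.12 ± 0.38, edgeR adjusted p = 0.18).

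The interferon and double-stranded RNA sensing list, the one most raised in the deficient groups of the lists drawn here, had a median of 0.08 in rescued lines over 26 genes, against 2.11 in KO and 2.02 in 41585 with the same WT. Single members varied between rescued libraries: Ddx58, the RIG-I sensor, had 4.95 and 20.3 CPM in WT, 13.2 and 25.9 in replicate 1 of 41584 and 41589, and 66.6 to 107 in the other 4 (2.34 ± 0.69, edgeR adjusted p = 0.16). Epithelial adhesion genes had a median of −0.18 over 22 genes, with −0.48 in SOM, −0.09 in 41584 and 0.02 in 41589. With the same WT the median was 1.46 in KO and 1.38 in 41585. By library it lay between −0.63 and 0.213 in rescued lines, with −0.121 and 0.121 in WT. The members lower without overlap were 3, Cldn7, Esrp1 and Dsp, beside 9.68% of all genes. Esrp1, a splicing regulator of epithelia, had 56.1 and 47.8 CPM in WT and 3.77 to 26.3 CPM in rescued libraries (−1.66 ± 0.46, edgeR adjusted p = 0.155). Trophectoderm genes had a median of −0.44 over 13 genes, against 0.59 in KO and 0.61 in 41585 with the same WT. Among them, Tfap2c was at 73.8 and 55.1 CPM in WT and 23.3 to 39.8 CPM in rescued libraries (−1.13 ± 0.25, edgeR adjusted p = 0.117).

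**Figure D4:**
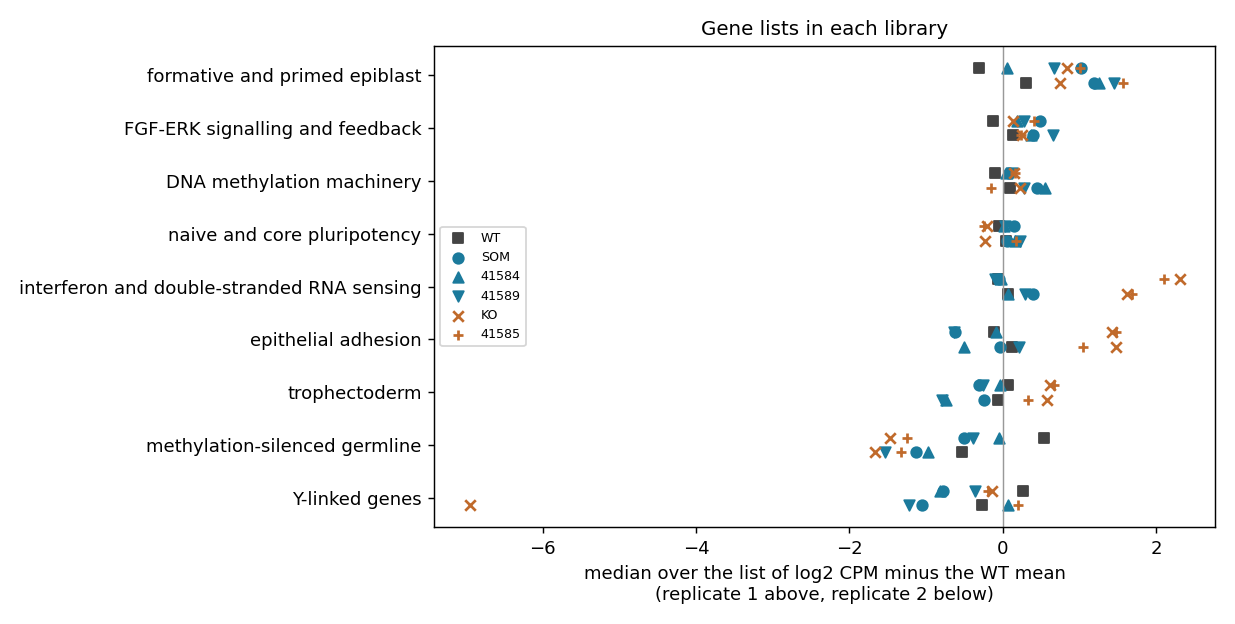
Median over each list of the log2 CPM minus the WT mean, 1 point per library, with replicate 1 drawn above replicate 2; grey squares are WT, blue symbols the rescued lines and orange symbols KO and 41585. In the epiblast list 41584 replicate 1 lies between the WT libraries at 0.0515, and in the interferon list the rescued libraries lie near 0 while the deficient ones lie between 1.62 and 2.31.

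Germline genes that DNA methylation silences had a median of −0.67 over 25 genes in rescued lines. With the same WT the median was lower still in the deficient groups, −1.82 in KO and −1.58 in 41585. In rescued lines 0 members were higher and 1 lower without overlap, beside 7.27% and 9.68% of all genes. That gene was Stag3, a meiotic cohesin subunit, at 185 and 145 CPM in WT and 61.9 to 144 CPM in rescued libraries (−0.83 ± 0.23, edgeR adjusted p = 0.155). WT replicates themselves lay at 0.533 and −0.533 around their mean on this list. Replicate 1 of SOM, 41584 and 41589 lay within that range, at −0.509, −0.0506 and −0.382. Replicate 2 of these lines lay below it, at −1.13, −0.98 and −1.53. The DNA methylation machinery had a median of 0.27 over 13 genes, with Dnmt3a and Dnmt3l higher without overlap, beside 7.27% of all genes. Dnmt3l, the cofactor of the de novo enzymes, had 49.6 and 132 CPM in WT and 143 to 405 CPM in rescued libraries (1.31 ± 0.36, edgeR adjusted p = 0.153). The 7 tested Hox genes had a median of −1.37, at levels of at most 10.1 CPM in WT. By library, replicate 1 of 41584 (0.0849) and of 41589 (−0.335) lay between the WT libraries, at 0.421 and −0.421. The other rescued libraries lay at −0.743 to −1.67. In KO and 41585 the median of the Hox genes was −2.14 and −1.57 with the same WT. Hoxd13 was the 1 Hox gene lower without overlap in rescued lines, beside 9.68% of all genes.

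Other chromosomes held differences too. Chromosome 15 had the lowest autosomal median, −0.20, with −0.29 in SOM, −0.15 in 41584 and −0.15 in 41589. The 7 tested genes of the Y-linked list had a median of −0.65, with −1.21 in SOM, 0.04 in 41584 and −0.91 in 41589. Replicates 1 and 2 of 41584 parted on this list, with medians of −0.821 and 0.0674 relative to the WT mean, beside 0.269 and −0.269 in WT. Zfy1, a Y-linked zinc finger gene, had 49.5 and 20.6 CPM in WT and 0.376 to 10.6 CPM in rescued libraries (−3.42 ± 0.80, edgeR adjusted p = 0.132), and Eif2s3y had 276 and 190 CPM against 90.5 to 119 CPM. Uty, on the same chromosome, had 62.3 and 55.2 CPM in WT and 33.1 to 88 CPM in rescued libraries, so the Y genes did not move as 1. In 5-Mb windows with at least 8 tested genes, 6 of 449 had a median over 0.5 and 7 a median under −0.5. Of the 6, 5 lie between 130 and 160 Mb of chromosome 1. The other, at 40 to 45 Mb of chromosome 14, held 8 tested genes with a median of 1.29. Of the 7, 3 lie on chromosome 15, at 30 to 35 Mb (−0.60), 35 to 40 Mb (−0.60, with 11 of 28 genes lower without overlap, beside 9.68% of all genes) and 65 to 70 Mb (−0.75). On chromosome 1, the window that holds Mybl1, at 5 to 10 Mb, had a median of −0.66 with 5 of 18 genes lower without overlap, beside 9.68% of all genes. The chromosome 1 window at 65 to 70 Mb had −0.58. The others were at 0 to 5 Mb of Y (−0.52) and 100 to 105 Mb of chromosome 14 (−0.51).

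Sites for the miRNAs printed above were counted in the 3' UTRs of 12890 tested genes, as the letters opposite the seed. AGCACTT, the match to miR-294, miR-295 and miR-302b, was in 17.7% of all these genes. It was in 13.9% of 955 genes that lay higher without overlap and in 23.9% of 1253 that lay lower. The UTRs of these groups differed in length, with medians of 1192, 924 and 1790 bases, and no correction for length was made. In the chromosome 1 stretch the share was 23.6% of 123 genes, with a median length of 2063 bases. Of the called genes, Rab29, Nav1 and Timm17a hold the letters, and 1 match per gene is shown here in capitals with its flanks. Nav1 holds another match at base 4805 of a UTR of 7104 bases, and Timm17a at base 2525 of 6705. The flanks of these other matches are nearly the same in both genes, and repeated sequences were not masked in the search.
Rab29 site: attaaaagtgAGCACTTgtgaa
Nav1 site: cttctataaaAGCACTTttgtgtagag
Timm17a site: taaaaaggacAGCACTTaattggggct
All 3 genes were higher in the rescued lines than in WT. They lie in the chromosome 1 stretch, which was raised in the deficient groups as well, and an effect of the sites was not tested. The miR-20a match GCACTTT was in 14.6% of all genes, in 10.8% of the higher and in 20.5% of the lower genes without overlap. It was in 6 of the 12 called genes with a UTR (50%), which had a median UTR length of 2299.5 bases. These were Lamc1, Slc41a1, Nav1, Timm17a and Ipo9, all higher, and Rsrp1, the 1 lower called gene with any of these matches.
Rsrp1 site: tgccaaaactGCACTTTactgaggggt
The let-7 match CTACCTC was in 10.8% of all genes, in 9.53% of the higher and in 11.5% of the lower genes without overlap, and in 1 called gene, Timm17a.

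The number of called genes, those in the chromosome 1 stretch included, depended on which libraries entered. Genes called higher within the stretch numbered 0 to 64 over the alternatives, while its median fold, with its borders held fixed, stayed between 0.646 and 0.871. With 41584 and 41589 reduced to their replicate 2, edgeR called 3866 genes, and with both reduced to their replicate 1 it called 57. Of these 57, 30 were higher, and 20 of the 30 lie in the stretch. The median fold of the stretch in these fits was 0.65 and 0.80. With the genes of the stretch left out of the test, an alternative chosen after seeing the data, 1 gene was called, Efhc2 (edgeR adjusted p = 0.0204).

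**Figure D5:**
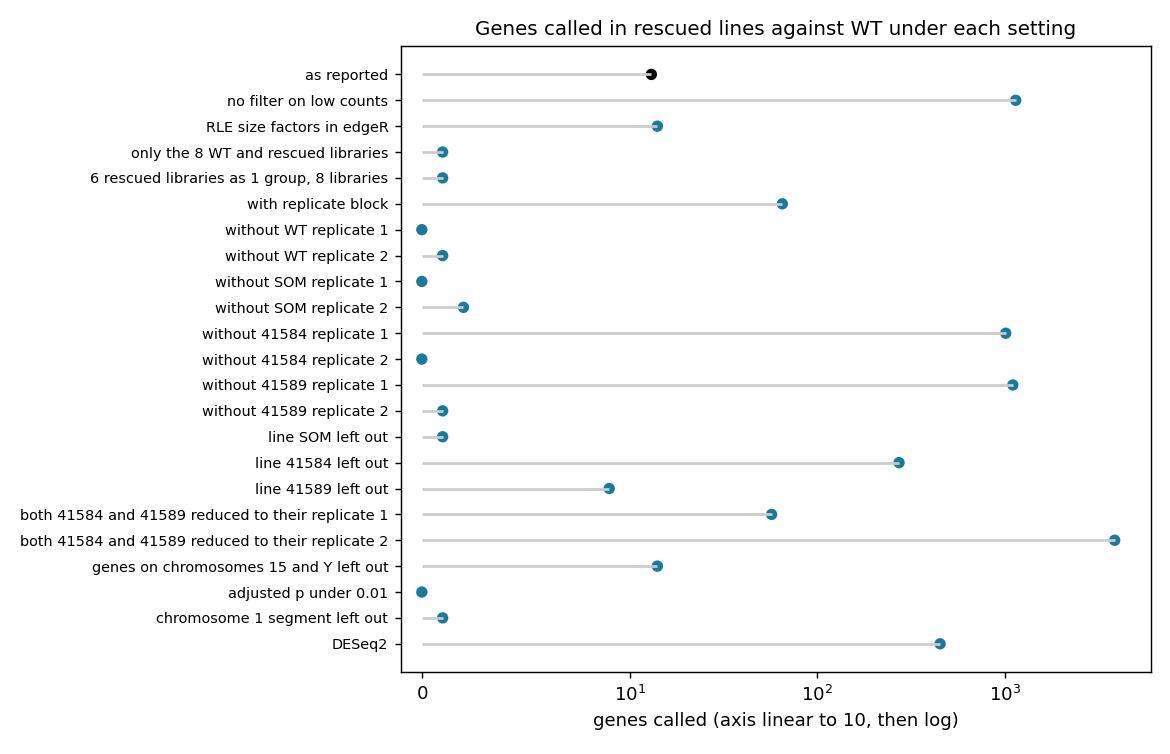
Number of genes called in rescued lines against WT under each setting, on an axis that is linear to 10 and logarithmic above. The count is 13 as reported, 0 to 2 in the 6 settings that leave out a WT, SOM or replicate 2 library, and 1013 and 1105 without replicate 1 of 41584 or of 41589.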

How the data were processed

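Poly(A) RNA was sequenced from 12 libraries, of which 8 are compared here. The authors deposited unnormalized counts of reads for 47643 genes. Reads were aligned to GRCm38 (mm10) with STAR 2.4.2a, per the submitters' processing notes; the sources used here do not give the counting program, its strand setting or annotation release. GENCODE M21 gave symbols and positions, and left 419 genes without a symbol. The quasi-likelihood test of edgeR 4.0.16 was run on all 12 libraries with 1 mean per group, TMM scaling, robust fitting and filterByExpr, which left 14629 genes and 6 residual degrees of freedom, with a common biological coefficient of variation of 0.278. The contrast was the mean of SOM, 41584 and 41589 minus WT, with calls at an adjusted p (Benjamini-Hochberg) under 0.05. Folds are log2 ± standard error of the fit. CPM are reads over TMM-scaled totals; log2 CPM used a prior count of 2. DESeq2 1.42.0, other filters and scalings, a replicate block and leaving out libraries or lines were alternatives. The fit and the search for stretches were checked on simulated data.

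Members and lists were chosen with earlier results of these data known. Named were Dicer1 and the machinery genes of smallest adjusted p, up to 12 shared genes per direction with at least 5 CPM and an ordinary symbol, up to 4 members of a list plus those needed to state what it did, and 4 shared genes of smallest p among lines. Fam110c (under 5 CPM), Dusp27, and the uncalled genes of the chromosome 1 stretch were chosen after their values were seen. Where a group was left with 1 library, its spread was taken from the other groups.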

Additional observations from a re-analysis of the deposited data

Results flagged for a closer look

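Over the 6 rescued libraries 15 sets of values were checked for a library far from the others, and 3 had one; chance marks about 1 in 20 such sets. Timm17a stood at 78.5 CPM in 41584 replicate 1, below the other rescued libraries by 0.637 of their whole range on the log2 scale. Mybl1 stood at 19.5 CPM in SOM replicate 1, below the others by 0.629 of their range. The median of the chromosome 1 stretch, over its genes with a mean of at least 5 CPM, was 0.599 in SOM replicate 1, below the other rescued libraries by 0.68 of their range. Each of these values still lay on the same side of both WT libraries as the rest.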

How the results depend on the processing

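The median fold of the chromosome 1 stretch, 0.761, stayed between 0.646 and 0.871 under all 20 alternatives run for it, and between 0.703 and 0.784 when 1 library was left out. It moved by more than 0.107, its standard deviation over the 3 lines, with SOM left out (0.871) and with 41584 and 41589 reduced to replicate 2 (0.646). The stretch itself and the fit without its genes were chosen after seeing the data.

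The 13 calls and the 12 shared genes depended on the processing. With no filter on low counts they became 1145 and 620, with only the 8 WT and rescued libraries 1 and 1, with the 6 rescued libraries as 1 group 1 and 1, at an adjusted p under 0.01 0 and 0, and with DESeq2 452 and 361. Without the genes of the stretch they were 1 and 1, without line SOM 1 and 1, and without line 41584 273 and 272. With 41584 and 41589 reduced to replicate 1 they were 57 and 54, and reduced to replicate 2 they were 3866 and 3589. Leaving out 1 library gave 0 to 1105 calls and 0 to 963 shared genes. At the 0 calls under 0.01, 1320 genes were higher and 1547 lower at an unadjusted p under 0.05. RLE scaling (14 and 13), chromosomes 15 and Y left out (14 and 13) and line 41589 left out (9 and 9) stayed within 1.5 times. The cause was not tested; replicate 1 of 41584 and of 41589 lay nearest to WT.

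The 0 calls of each line became 1345 for SOM, 132 for 41584 and 541 for 41589 with no filter, and 660, 27 and 74 with DESeq2. Leaving out 1 library gave 0 to 311, 0 to 106 and 0 to 647. Among the 3 lines the 0 calls became 10 with no filter, 1 with DESeq2's likelihood ratio test and 0 to 1 with 1 library left out.

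With the replicate number as a block, 65 genes were called, 57 of them shared, and SOM had 3 and 41589 1. The numbers are not shown to pair the libraries: the deviations of same-numbered libraries correlated between −0.06 and 0.51 over the 6 pairs of groups, above 0.1 in 3.

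For the 13 called genes, 279 values under alternatives gave 143 on the same side of the threshold, 136 beyond it and 0 in the other direction. Depth limited Fam110c and Rab29, with at most 21 and 5 reads in a WT library.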

Other observations

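For a small group of genes WT lay between the rescued and the deficient libraries, with no overlap on either side. In 115 genes (0.786% of those tested) all rescued libraries lay below both WT libraries and all deficient ones above, and in 37 (0.253%) the order was the opposite. The examples that follow were chosen after their values were seen, and none was called between rescued lines and WT. Osm, a cytokine of the LIF family, had 1.24 and 1.97 CPM in WT, 0 to 0.384 CPM in rescued libraries and 14.8 to 20 CPM in deficient ones (rescued against deficient −6.35 ± 0.42, edgeR adjusted p = 1.38e-06; rescued against WT −2.96 ± 0.56, edgeR adjusted p = 0.079). Tmem30b, a lipid flippase subunit of epithelia, had 22 and 8.31 CPM in WT, 1.2 to 4.13 CPM in rescued libraries and 31.5 to 43.3 CPM in deficient ones (rescued against WT −2.52 ± 0.43, edgeR adjusted p = 0.0544). The splicing regulator Esrp1 had 119 to 157 CPM in deficient libraries, above 56.1 and 47.8 CPM in WT, with 3.77 to 26.3 CPM in rescued libraries. Gap43, a growth cone protein, showed the opposite order, with 0.773 and 1.42 CPM in WT, 2.68 to 18 CPM in rescued libraries and 0 to 0.308 CPM in deficient ones.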
